A study of Mus musculus with 30 samples.

Results

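Interferon-stimulated and antigen presentation genes were followed in whole mouse kidney. The 36 members were listed by gene symbol, and each was found by its Ensembl identifier as 1 of the 57133 rows in both deposited count tables. They were described in 3 classes: 26 type I interferon targets, 6 type II interferon targets and 4 genes of MHC class I presentation. The classes are textbook assignments, and many of the genes answer to both kinds of interferon.

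The study asked how kidneys of transgenic (TG) mice, labelled Gsta2-H2BeGFP, respond early to ischemia-reperfusion injury, compared with wild-type (WT) kidneys. Poly(A) RNA of whole kidney was sequenced in 30 libraries, which fell into 8 groups. Male kidneys with nephrectomy plus ischemia-reperfusion injury (IRI), at 4 hours, gave 6 TG and 6 WT libraries. Male kidneys with nephrectomy alone (NX), at a time the labels do not give, provided 3 TG and 3 WT libraries. Without surgery there were 3 libraries each of TG females, WT females, TG males and WT males. Injury was therefore measured in males only. The promoter that drives the transgene, the strain and the age are not given in the sources used here. Nor do the labels say that libraries of a group come from separate animals, so the tests below weigh differences against spread among libraries, which may be technical.

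Interferons are secreted alarm signals. Type I interferons bind a receptor made of Ifnar1 and Ifnar2, and the kinases Jak1 and Tyk2 then activate a complex holding Stat2 and Irf9 that binds interferon-stimulated response elements (ISREs) in the promoters of antiviral genes. Type II interferon, made mainly by T and NK cells, acts through Ifngr1 and Ifngr2 and through Jak1 and Jak2, and leads to binding at gamma-activated sequences (GAS). Both raise MHC class I presentation, in which Tap1 carries peptides into the endoplasmic reticulum to be loaded on heavy chains such as H2-K1 and H2-D1, held together by the light chain B2m. In the kidney, tubule, endothelial and resident immune cells can all respond to interferon.

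Totals ranged from 59574069 to 91354407 counts over the 18 NX and IRI libraries and from 49040915 to 66446450 over the 12 no-surgery libraries. Counts of the transgene's EGFP ranged from 86 to 1294 in the 15 TG libraries and were 0 in 14 of the 15 WT libraries. The exception was the library labelled WT IRI replicate 1, with 206 EGFP counts, which goes against its label. It was kept among the WT IRI libraries, and for each comparison that rests on that group a count of members is also given without it. Medians by class, and most values of single genes, other lists and markers, are given only with that library included. Summed markers of the proximal tubule, the kidney's main cell type, were high in every library of the NX and IRI groups, between 7540 and 13800 CPM (counts scaled to the TMM-normalized library size). A second library, WT IRI replicate 2, stood apart for the members themselves. It was the highest of the 12 IRI libraries for 25 of the 36, and counts of members are given with and without it.

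Members differed widely in level before any comparison. In WT males without surgery the members ran from B2m, at 658 ± 126 TPM (reads scaled by gene length and library total; mean ± SD, n = 3), to Oas3, at 0.139 ± 0.162 TPM. The heavy chains H2-D1 and H2-K1 followed B2m, at 214 ± 22.5 and 149 ± 9.94 TPM. Ifi27, a small interferon-induced membrane protein, led the type I targets at 101 ± 35.3 TPM. The ubiquitin ligase Trim25 came next at 52.9 ± 3.16 TPM and the virus tether Bst2 at 46.5 ± 10.1 TPM, a gap smaller than the SD of Bst2. Among the type II targets Gbp2, an interferon-induced GTPase, was highest at 13.1 ± 3.43 TPM, while Tap1 stood at 4.39 ± 0.517 TPM, far below the other MHC class I genes. The chemokine Cxcl10 was among the low members in the same males, at 1.86 ± 0.438 TPM, but averaged 16.8 ± 5.46 TPM in TG kidneys and 20.8 ± 7.55 TPM in WT kidneys after IRI (n = 6 each). Over the 8 groups B2m averaged 641 ± 67.0 TPM in TG IRI, 863 ± 249 in WT IRI, 712 ± 147 in TG NX and 622 ± 54.0 in WT NX kidneys, and 929.8 ± 37.6 in TG females, 1078 ± 199 in WT females, 729 ± 73.7 in TG males and 658 ± 126 in WT males without surgery. Isg15, a type I target, averaged 10.9 ± 0.800 TPM in TG IRI, 14 ± 6.30 in WT IRI, 7.04 ± 1.3 in TG NX and 3.48 ± 2.25 in WT NX kidneys, and 14.2 ± 1.17 in TG females, 14.3 ± 4.30 in WT females, 9.82 ± 3.57 in TG males and 12.2 ± 4.08 in WT males without surgery. Gbp3, a type II target, averaged 4.74 ± 0.668 TPM in TG IRI, 7.42 ± 5.32 in WT IRI, 5.0 ± 0.558 in TG NX and 4.65 ± 1.18 in WT NX kidneys, and 60.2 ± 17.8 in TG females, 62.1 ± 5.83 in WT females, 7.02 ± 0.585 in TG males and 7.61 ± 1.53 in WT males without surgery. B2m was thus the most abundant member in every group, Isg15 was lowest in WT NX kidneys, and Gbp3 was highest in females. The no-surgery groups lie in a table of their own and were not tested against the surgery groups.

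**Figure D1:**
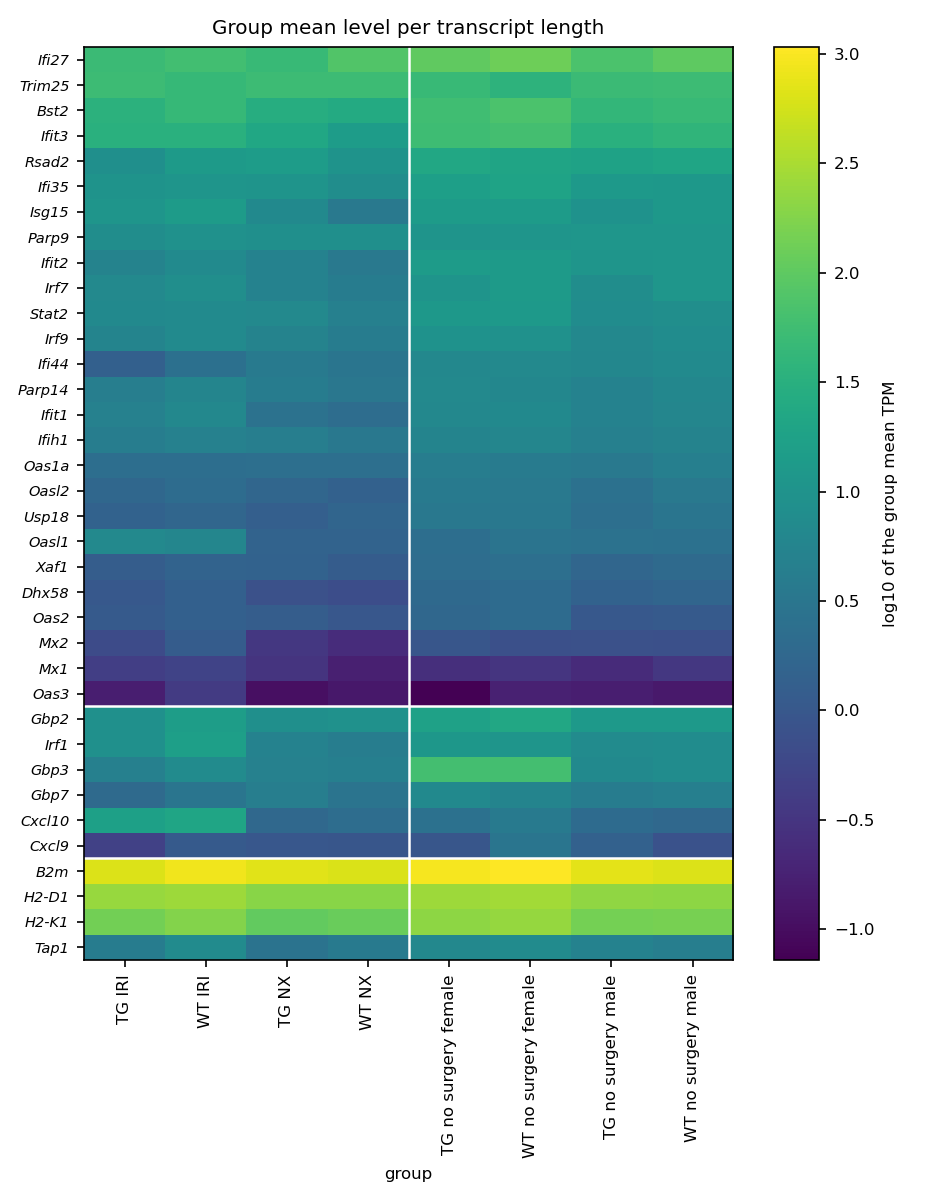
Group mean TPM of the 36 members on a log10 colour scale, with type I targets, type II targets and MHC class I genes from top to bottom and the surgery groups left of the no-surgery groups. B2m, H2-D1 and H2-K1 are the brightest rows in every group, Cxcl10 is brighter after IRI than after NX, and Gbp3 is brighter in both female groups than in both male groups.

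The bases before the start sites of 6 members are shown as genes of the main contrasts whose windows hold one of the motifs searched: Isg15, Ifit1, Cxcl10 and Irf1 after injury, Gbp3 between the sexes, and B2m as the most abundant member. Each run holds the 250 bases upstream of a RefSeq start, 5′ to 3′ in the direction of transcription, in build GRCm38.p6, which is older than the GRCm39 build of the counts. Capitals mark every match, on either strand, to 3 letter patterns. These were GAAA followed after any 2 bases by GAAA (ISRE) and TTC followed after any 3 bases by GAA (GAS). The last was GGG followed after any 3 bases by TTCC, a form of the kappa-B motif bound by NF-kappa-B factors. Other forms of these motifs were not searched and are not marked. The windows are chr4:156200819-156201068 (minus strand), chr19:34640639-34640888 (plus), chr5:92348890-92349139 (minus), chr11:53769764-53770013 (plus, the first of 2 starts), chr3:142559794-142560043 (plus, the first of 2 starts) and chr2:122147437-122147686 (plus).
Isg15: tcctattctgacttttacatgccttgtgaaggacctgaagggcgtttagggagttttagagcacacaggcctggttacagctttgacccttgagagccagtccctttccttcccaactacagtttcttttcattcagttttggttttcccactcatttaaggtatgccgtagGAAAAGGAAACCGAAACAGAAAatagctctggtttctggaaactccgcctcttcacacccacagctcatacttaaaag
Ifit1: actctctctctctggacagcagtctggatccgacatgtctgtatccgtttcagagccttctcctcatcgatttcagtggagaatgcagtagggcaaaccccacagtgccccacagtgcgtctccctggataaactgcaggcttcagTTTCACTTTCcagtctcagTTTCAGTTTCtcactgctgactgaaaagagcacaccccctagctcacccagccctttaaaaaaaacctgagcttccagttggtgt
Cxcl10: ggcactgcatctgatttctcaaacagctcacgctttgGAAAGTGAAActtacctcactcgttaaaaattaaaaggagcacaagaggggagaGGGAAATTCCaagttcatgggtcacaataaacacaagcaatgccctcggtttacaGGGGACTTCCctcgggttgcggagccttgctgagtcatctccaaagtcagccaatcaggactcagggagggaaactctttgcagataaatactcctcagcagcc
Irf1: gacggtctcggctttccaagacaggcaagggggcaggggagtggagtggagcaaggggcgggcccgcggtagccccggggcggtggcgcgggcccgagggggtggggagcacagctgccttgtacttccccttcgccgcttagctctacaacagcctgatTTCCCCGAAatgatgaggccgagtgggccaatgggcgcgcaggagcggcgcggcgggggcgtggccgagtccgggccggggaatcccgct
Gbp3: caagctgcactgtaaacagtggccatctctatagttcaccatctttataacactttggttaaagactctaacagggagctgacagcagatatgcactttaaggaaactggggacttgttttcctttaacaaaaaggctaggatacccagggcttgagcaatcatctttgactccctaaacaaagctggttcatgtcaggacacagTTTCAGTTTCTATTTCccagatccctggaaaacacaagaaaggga
B2m: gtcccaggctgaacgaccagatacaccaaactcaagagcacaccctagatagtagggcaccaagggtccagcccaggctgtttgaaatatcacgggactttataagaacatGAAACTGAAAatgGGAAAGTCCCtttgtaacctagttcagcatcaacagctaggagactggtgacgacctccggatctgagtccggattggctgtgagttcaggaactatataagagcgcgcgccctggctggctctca
Isg15 held 3 overlapping ISRE matches, beginning 78, 72 and 66 bases before its start, and Ifit1 held 2, beginning 104 and 85 bases before its start. In Cxcl10 the ISRE letters began 213 bases upstream and kappa-B letters began 159 and 104 bases upstream. The GAS letters of Irf1 began 90 bases upstream. Gbp3 had 2 overlapping ISRE matches, beginning 45 and 39 bases upstream, and B2m had ISRE letters followed closely by kappa-B letters, beginning 139 and 126 bases upstream. The windows of the second starts of Irf1 and Gbp3 held no match to the 3 patterns and are not shown. Of the 28 members with a window of 250 bases before to 50 bases after a start, 14 (50%) held the ISRE letters, against 1079 of 27025 genes (3.99%). By class these were 9 of 18 type I targets, 4 of 6 type II targets and 1 of 4 MHC class I genes. GAS letters stood in 6 of 28 members (21.4%), against 9.55% of all genes, and kappa-B letters in 7 of 28 (25.0%), against 6.31%. The windows of Oasl1, Oasl2, H2-D1, H2-K1, Irf7, Irf9, Ifi44, Trim25, Tap1 and Cxcl9 held no match to the 3 patterns and are not shown. Because other forms were not searched, a window without a match may still hold one of the motifs. A match of letters is a description of the window and says nothing about binding in these kidneys.

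Injury was set against nephrectomy alone within each genotype. In TG kidneys 3 of the 36 members rose after IRI and 3 fell at an adjusted p under 0.05 in edgeR, where 16.4% of the 19264 genes tested rose and 13% fell. In WT kidneys 16 members rose and 0 fell, where 16.8% of all genes rose and 14.1% fell. At an unadjusted p under 0.05 the lower members were 3 in TG, where 18.5% of all genes were lower, and 1 in WT, where 19.4% were, and DESeq2 also called 0 lower in WT. Cxcl10, Oasl1 and H2-D1 rose in both genotypes, which is 3 of the 6 members called in TG and 3 of the 16 called in WT. The median log2 fold change over the members was 0.16 in TG kidneys and 0.65 in WT kidneys, beside -0.01 over all genes in each. In TG kidneys the classes had medians of 0.16 for type I targets, 0.06 for type II targets and 0.41 for MHC class I genes, and in WT kidneys 0.71, 0.67 and 0.54. The log2 fold change was above 0 for 28 of 36 members in TG kidneys and for 32 of 36 in WT kidneys.

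The difference between these responses was tested as an interaction of genotype and injury, and edgeR called none of the 36 members and none of the 19264 genes. At an unadjusted p under 0.05, 9 members had a lower response in TG and 0 a higher one, where 4.91% of all genes were lower and 4.68% higher, and DESeq2 called 1 member, Rsad2, lower. The 9 members were 3 without TG NX replicate 2 and 3 in limma-voom, and without WT NX replicate 1 they were 4, with 1 member higher. Without the library labelled WT IRI replicate 1 they were 11, and without WT IRI replicate 2 they were 8, with 1 member higher. A member called in WT and not in TG is therefore not shown to respond differently. Without the library labelled WT IRI replicate 1 the WT count was 21 members higher, with B2m, Ifi35, Parp14, Rsad2 and Tap1 added to the 16, and the median over the members was 0.79. Without WT IRI replicate 2 the same 16 members were called with a median of 0.44, and with both libraries left out, a setting chosen after the data were seen, they were called with Parp14. The WT count was lowest without WT NX replicate 1, at 12. With the libraries of 1 genotype alone in the fit, 8 members rose in TG and 13 in WT.

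**Figure D2:**
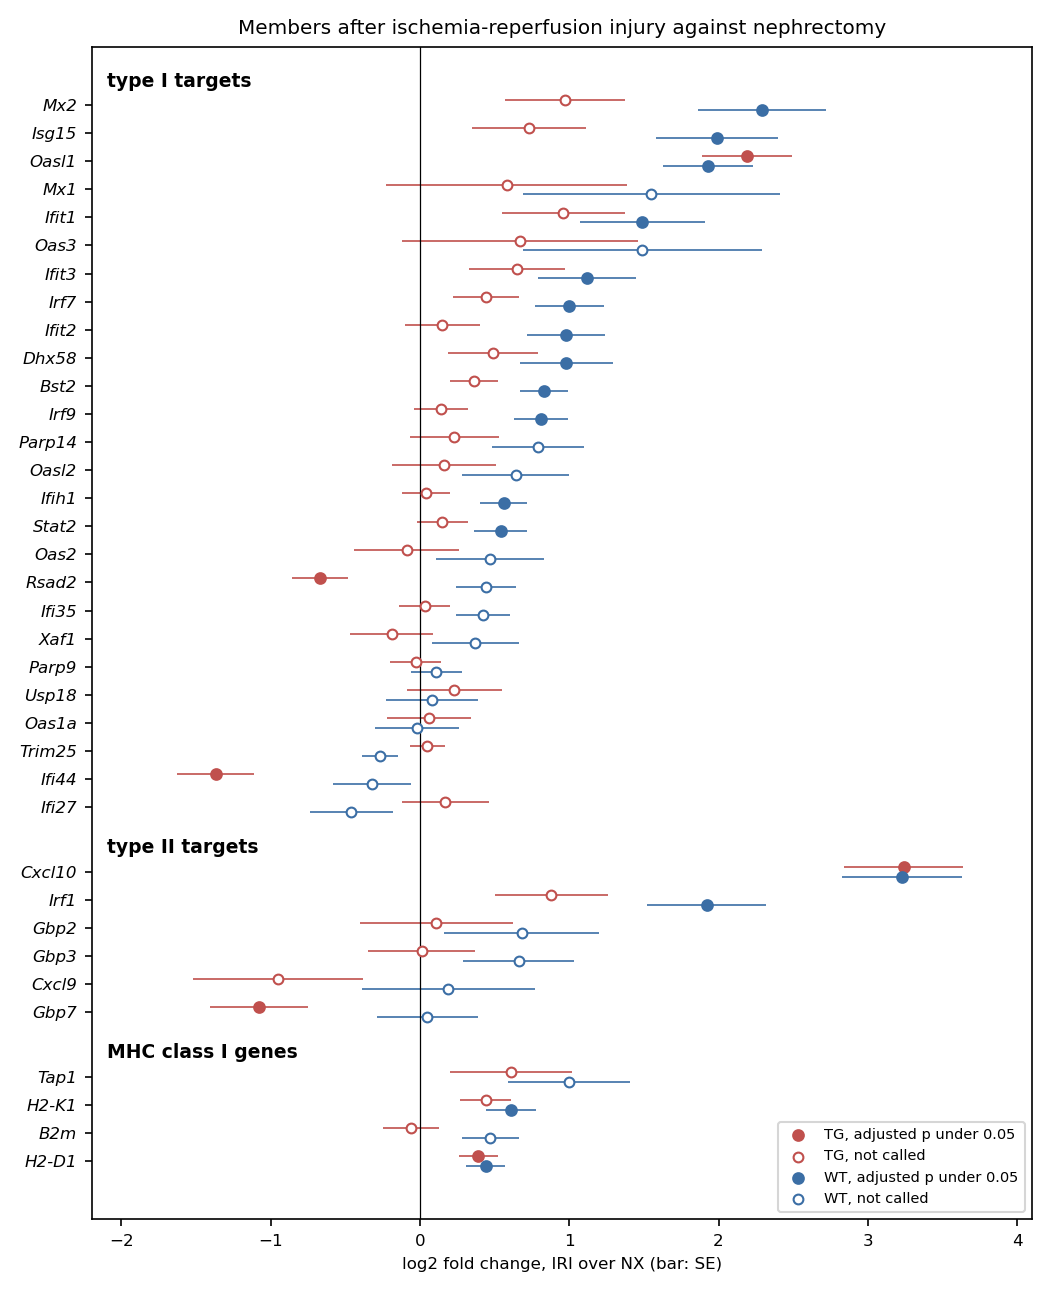
The log2 fold change of each member, IRI over NX, with its SE as a bar, in TG kidneys and in WT kidneys, ordered within each class by the WT value. Filled points passed an adjusted p under 0.05 in edgeR and open points did not. Cxcl10 lies farthest to the right in both genotypes, and most WT points lie to the right of the TG points of the same gene.

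In bulk tissue fewer cells of a type and less RNA per cell cannot be told apart, and markers of blood cells moved with injury. Neutrophil markers summed to between 4.80 and 36.1 CPM in TG kidneys and between 20.2 and 76.8 in WT kidneys after IRI, against 0.496 to 0.748 in TG and 0.214 to 0.896 in WT kidneys after NX. Of the 4 neutrophil markers, 3 were tested and all 3 rose in each genotype; Ly6g was at 0 in the WT NX libraries. Red cell globins summed to 28.1 to 146 CPM in TG and 107 to 1270 in WT kidneys after IRI, against 3.46 to 18.2 in TG and 34.8 to 117 in WT kidneys after NX. Pan-leukocyte markers overlapped more between treatments, at 20.4 to 32.2 CPM in TG and 22.5 to 57.0 in WT kidneys after IRI, against 17.1 to 32.5 and 19.1 to 23.8 CPM in TG and WT kidneys after NX. Summed macrophage markers and summed T and NK cell markers overlapped between IRI and NX in both genotypes, though single markers moved. Of 5 macrophage markers, 1 rose and 1 fell in TG, and 2 rose and 1 fell in WT. Of 4 T and NK cell markers tested, 1 fell in TG and 0 were called in WT. Markers of other kidney cells also moved. Both thick ascending limb markers and both podocyte markers rose in WT kidneys, with median log2 fold changes of 0.68 and 0.60. In WT 2 of 5 endothelial markers also rose, and 3 of 4 adipocyte markers fell. Adipocyte markers summed to 0.0, 0.275 and 177 CPM in the WT NX libraries, against 0.0335 to 4.95 CPM after IRI. The high adipocyte level after NX thus lay in 1 library. In TG kidneys none of the thick ascending limb, podocyte and adipocyte markers passed and 1 of 5 endothelial markers rose. Of 5 proximal tubule markers, 3 fell in TG and 2 in WT. The part these cells have in the members' values was not tested.

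Among the type I targets, the transcription factors of the pathway come first. Irf7, which drives interferon transcription, rose in WT kidneys and did not pass the test in TG kidneys. Irf7 had 7.99, 8.88 and 10.5 CPM in TG kidneys after IRI, against 5.69, 5.89 and 8.61 CPM in TG kidneys after NX, and 8.74, 10.4 and 18.4 CPM in WT kidneys after IRI, against 7.05, 4.46 and 6.24 CPM in WT kidneys after NX (lowest, median and highest of 6 after IRI, and the 3 libraries after NX, here and for the genes that follow). All WT IRI libraries lay above all WT NX libraries, while the TG groups overlapped. The log2 fold change was 0.44 ± 0.22 (SE) in TG, with an edgeR adjusted p of 0.148, and 1.0 ± 0.23 in WT, with an edgeR adjusted p of 0.0023. Reads of Irf7 cannot be separated from those of Phrf1, which overlaps it on the opposite strand, because the strand setting of the counting is not stated.

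Irf9 and Stat2, subunits of the ISRE-binding complex, also rose in WT kidneys. Irf9 had 9.43, 11 and 12.1 CPM in TG kidneys after IRI, against 11.5, 8.22 and 9.90 CPM in TG kidneys after NX, and 10.04, 14.9 and 21.3 CPM in WT kidneys after IRI, against 8.19, 8.66 and 8.48 CPM in WT kidneys after NX. Its WT groups were apart and its TG groups overlapped, with log2 fold changes of 0.14 ± 0.18 in TG (edgeR adjusted p = 0.597) and 0.81 ± 0.18 in WT (edgeR adjusted p = 0.00195). Stat2 had 13, 14.9 and 17.6 CPM in TG kidneys after IRI, against 13.3, 12 and 15.5 CPM in TG kidneys after NX, and 11.4, 14.2 and 23.6 CPM in WT kidneys after IRI, against 12.2, 10.3 and 10.2 CPM in WT kidneys after NX. The Stat2 ranges overlapped in both genotypes, and the WT rise was small, at 0.54 ± 0.18 (edgeR adjusted p = 0.0262), beside 0.15 ± 0.17 in TG (edgeR adjusted p = 0.57). The Stat2 call was lost without WT NX replicate 1, without WT NX replicate 2, in limma-voom and with WT libraries alone in the fit. Irf9 overlaps Rnf31 on the same strand, so some of its reads may be shared.

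Isg15, a ubiquitin-like protein that is attached to other proteins, was 3.99-fold higher after IRI in WT kidneys. Isg15 had 2.56, 2.81 and 3.20 CPM in TG kidneys after IRI, against 1.43, 1.63 and 2.03 CPM in TG kidneys after NX, and 1.53, 3.66 and 5.96 CPM in WT kidneys after IRI, against 1.67, 0.489 and 0.676 CPM in WT kidneys after NX. In TG every IRI library lay above every NX library, and in WT the lowest IRI library lay below the highest NX library. Even so the test passed in WT (1.99 ± 0.41, edgeR adjusted p = 0.000938) and not in TG (0.73 ± 0.38, edgeR adjusted p = 0.16).

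The 3 Ifit genes encode proteins that bind foreign RNA and block its translation, and all 3 rose in WT kidneys. Ifit1 had 2.98, 4.78 and 6.61 CPM in TG kidneys after IRI, against 3.01, 2.18 and 2.16 CPM in TG kidneys after NX, and 2.55, 5.79 and 10.9 CPM in WT kidneys after IRI, against 2.81, 1.65 and 2.41 CPM in WT kidneys after NX. The log2 fold change of Ifit1 was 0.96 ± 0.41 in TG (edgeR adjusted p = 0.0854) and 1.49 ± 0.42 in WT (edgeR adjusted p = 0.0106), with overlapping libraries in both. The Ifit1 call was lost without WT NX replicate 1 and in limma-voom. Ifit2 reached 4.93, 7.67 and 9.93 CPM in TG after IRI, against 7.64, 5.12 and 7.74 after NX, and 7.16, 9.44 and 17.5 CPM in WT after IRI, against 5.5, 4.49 and 6.15 after NX. Its WT groups did not overlap (0.98 ± 0.26, edgeR adjusted p = 0.0078), whereas its TG groups did (0.15 ± 0.25, edgeR adjusted p = 0.711). Ifit3 reached 12, 20.6 and 30.4 CPM in TG after IRI, against 15.2, 8.67 and 15.6 after NX, and 12.7, 20.6 and 36.1 CPM in WT after IRI, against 10.2, 9.73 and 9.45 after NX. The medians after IRI were alike in the 2 genotypes, while the TG NX libraries reached higher than the WT NX libraries. The rise passed the test in WT (1.12 ± 0.33, edgeR adjusted p = 0.014) and not in TG (0.65 ± 0.32, edgeR adjusted p = 0.142), and the WT call was lost without WT NX replicate 2. Ifit3 shares sequence with its near copy Ifit3b, and the counting may have split reads between them.

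Oasl1 was the type I target that rose in both genotypes. It belongs to the oligoadenylate synthetase family and in mice restrains the translation of Irf7. Oasl1 had 4.54, 6.58 and 8.41 CPM in TG kidneys after IRI, against 1.11, 1.87 and 1.16 CPM in TG kidneys after NX, and 3.43, 5.83 and 9.24 CPM in WT kidneys after IRI, against 2.01, 1.59 and 1.09 CPM in WT kidneys after NX. IRI and NX libraries did not overlap in either genotype, with 4.56-fold higher levels in TG (2.19 ± 0.30, edgeR adjusted p = 1.94e-05) and 3.80-fold in WT (1.93 ± 0.30, edgeR adjusted p = 7.29e-05). The other members of the family, Oasl2, Oas1a, Oas2 and Oas3, did not pass the test in either genotype, and their log2 fold changes ran from -0.09 to 0.67 in TG and from -0.02 to 1.49 in WT.

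Mx2, an antiviral GTPase, and the tether Bst2 rose in WT kidneys. Mx2 had 0.307, 0.901 and 1.22 CPM in TG kidneys after IRI, against 0.343, 0.416 and 0.533 CPM in TG kidneys after NX, and 0.869, 1.54 and 2.39 CPM in WT kidneys after IRI, against 0.325, 0.244 and 0.434 CPM in WT kidneys after NX. Although low, Mx2 was higher in every WT IRI library than in any WT NX library (2.29 ± 0.43, edgeR adjusted p = 0.000488), and the TG groups overlapped (0.97 ± 0.40, edgeR adjusted p = 0.0778). Bst2 had 9.55, 11.9 and 12.8 CPM in TG kidneys after IRI, against 8.20, 8.13 and 10.3 CPM in TG kidneys after NX, and 12.8, 13.8 and 20.3 CPM in WT kidneys after IRI, against 9.23, 7.88 and 9.14 CPM in WT kidneys after NX. For Bst2 the WT groups were apart (0.83 ± 0.16, edgeR adjusted p = 0.000683) and the TG groups overlapped (0.36 ± 0.16, edgeR adjusted p = 0.103).

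The RNA sensors Ifih1 and Dhx58 rose in WT kidneys. Ifih1 had 11.6, 12.4 and 13.5 CPM in TG kidneys after IRI, against 11.2, 11.9 and 13.3 CPM in TG kidneys after NX, and 11.6, 15.5 and 21.8 CPM in WT kidneys after IRI, against 10.7, 8.83 and 11.8 CPM in WT kidneys after NX. Its log2 fold change was 0.04 ± 0.16 in TG (edgeR adjusted p = 0.882) and 0.56 ± 0.16 in WT (edgeR adjusted p = 0.0112). Dhx58 reached 0.949, 1.25 and 1.44 CPM in TG after IRI, against 0.831, 0.928 and 0.880 after NX, and 1.17, 1.51 and 2.83 CPM in WT after IRI, against 1.31, 0.703 and 0.612 after NX. The WT libraries of both genes overlapped between IRI and NX, and Dhx58 passed in WT (0.98 ± 0.31, edgeR adjusted p = 0.0196) but not in TG (0.49 ± 0.30, edgeR adjusted p = 0.241). The Dhx58 call was lost without WT NX replicate 1, without WT NX replicate 2, with the replicate block and with WT libraries alone in the fit. The Ifih1 call was lost without WT NX replicate 1 and with WT libraries alone.

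Rsad2 and Ifi44 fell in TG kidneys. Rsad2 (viperin) makes a nucleotide that stops viral RNA synthesis, and Ifi44 is an interferon-induced cytoplasmic protein. Rsad2 had 11.6, 13.3 and 16.3 CPM in TG kidneys after IRI, against 18.4, 18.4 and 28.3 CPM in TG kidneys after NX, and 16.1, 20.5 and 34.3 CPM in WT kidneys after IRI, against 17.3, 15.6 and 17.8 CPM in WT kidneys after NX. In TG every IRI library lay below every NX library and the level fell 1.59-fold (-0.67 ± 0.19, edgeR adjusted p = 0.0108), while WT gave 0.44 ± 0.20 (edgeR adjusted p = 0.101). Ifi44 had 2.31, 2.91 and 3.87 CPM in TG kidneys after IRI, against 8.27, 6.58 and 8.89 CPM in TG kidneys after NX, and 3.38, 5.29 and 8.68 CPM in WT kidneys after IRI, against 7.93, 6.07 and 7.58 CPM in WT kidneys after NX. Ifi44 fell 2.59-fold in TG, again with no overlap (-1.37 ± 0.26, edgeR adjusted p = 0.000414), and WT gave -0.32 ± 0.26 (edgeR adjusted p = 0.387). The difference between genotypes in these responses was -1.11 ± 0.27 for Rsad2 (edgeR adjusted p = 0.376) and -1.05 ± 0.38 for Ifi44 (edgeR adjusted p = 0.415), so neither passed. Without TG NX replicate 2 the fall of Rsad2 was not called.

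The remaining type I targets did not pass the test in either genotype. Besides the Oas family these were the Isg15 protease Usp18, the GTPase Mx1, Ifi27, Ifi35, the ADP-ribosyltransferases Parp9 and Parp14, the apoptosis factor Xaf1 and Trim25. Their log2 fold changes ran from -0.19 for Xaf1 to 0.58 for Mx1 in TG and from -0.46 for Ifi27 to 1.55 for Mx1 in WT. Ifi27 was spread widely after NX in WT, at 85, 24.5 and 24 CPM. Its highest value came from WT NX replicate 0, where adipocyte markers summed to 177 CPM, and the part of those cells in the value was not tested. Parp9 overlaps Dtx3l on the opposite strand.

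Cxcl10 carried the largest change among the members. It encodes a chemokine that draws T and NK cells through the receptor Cxcr3. Cxcl10 had 7.92, 12.4 and 19.4 CPM in TG kidneys after IRI, against 1.63, 0.608 and 2.11 CPM in TG kidneys after NX, and 9.65, 16.4 and 27.4 CPM in WT kidneys after IRI, against 1.39, 2.18 and 2.09 CPM in WT kidneys after NX. Every IRI library lay above every NX library in both genotypes, by a fitted 9.44-fold in TG (3.24 ± 0.40, edgeR adjusted p = 4.68e-06) and 9.37-fold in WT (3.23 ± 0.40, edgeR adjusted p = 5.19e-06). The difference between the genotypes' responses was 0.01 ± 0.49 on the log2 scale. Its sister chemokine Cxcl9 was low, between 0.246 and 2.25 CPM in the 18 libraries, and did not pass, at -0.95 ± 0.57 in TG and 0.19 ± 0.58 in WT. In the annotation Cxcl10 overlaps Art3 on the opposite strand.

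Irf1, the transcription factor that starts much of the type II response, rose in WT kidneys. Irf1 had 11.1, 13.3 and 13.7 CPM in TG kidneys after IRI, against 6.87, 5.94 and 8.21 CPM in TG kidneys after NX, and 12.4, 16.8 and 64.9 CPM in WT kidneys after IRI, against 7.90, 5.54 and 6.15 CPM in WT kidneys after NX. No IRI library overlapped an NX library in either genotype, yet the test passed in WT (1.92 ± 0.40, edgeR adjusted p = 0.00121) and not in TG (0.88 ± 0.38, edgeR adjusted p = 0.093). The WT maximum came from WT IRI replicate 2, and without that library the WT value was 1.37 with an edgeR adjusted p of 1.62e-05.

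None of the guanylate-binding proteins, GTPases that attack membranes around intracellular microbes, was called higher after IRI in either genotype. Gbp7 had 3.15, 4.18 and 4.57 CPM in TG kidneys after IRI, against 8.62, 5.14 and 12 CPM in TG kidneys after NX, and 3.21, 5.21 and 13.9 CPM in WT kidneys after IRI, against 7.23, 6.48 and 4.89 CPM in WT kidneys after NX. Gbp7 fell 2.12-fold in TG with no overlap (-1.08 ± 0.33, edgeR adjusted p = 0.0177), and gave 0.05 ± 0.34 in WT (edgeR adjusted p = 0.938). The Gbp7 call in TG was lost without TG NX replicate 2. Gbp2 and Gbp3 did not pass in either genotype. Gbp2 gave 0.11 ± 0.51 in TG and 0.68 ± 0.52 in WT, and without WT IRI replicate 2 its WT value was -0.03. The Gbp genes are close relatives, and reads may have been split between them.

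**Figure D3:**
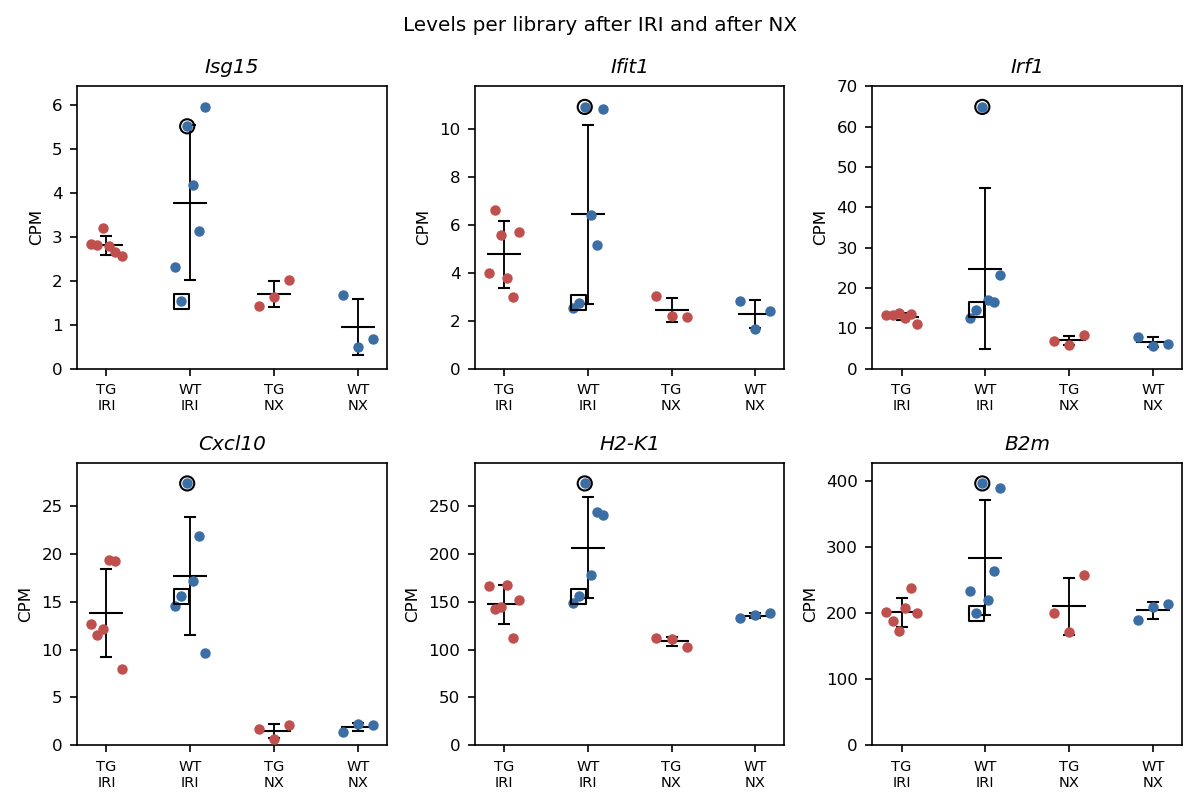
CPM in each library after IRI and after NX for Isg15, Ifit1, Irf1, Cxcl10, H2-K1 and B2m, with TG groups left of WT groups and a line and bar for the mean and SD. The circled point is WT IRI replicate 2 and the squared point is the library labelled WT IRI replicate 1. Cxcl10 separates IRI from NX completely, and the circled library is the highest for Ifit1, Irf1, Cxcl10, H2-K1 and B2m.

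Of the MHC class I genes, the heavy chain H2-D1 rose in both genotypes and H2-K1 in WT kidneys. H2-K1 had 112, 148 and 167 CPM in TG kidneys after IRI, against 112, 112 and 103 CPM in TG kidneys after NX, and 148, 209.7 and 274 CPM in WT kidneys after IRI, against 133, 136 and 138 CPM in WT kidneys after NX. The groups were apart in WT, while in TG the lowest IRI library, at 112.1 CPM, lay just above the highest NX library, at 111.6 CPM. The log2 fold changes were 0.44 ± 0.17 in TG (edgeR adjusted p = 0.0527) and 0.61 ± 0.17 in WT (edgeR adjusted p = 0.00873). H2-D1 had 204, 233 and 251 CPM in TG kidneys after IRI, against 159, 160.0 and 209 CPM in TG kidneys after NX, and 215, 240.0 and 331 CPM in WT kidneys after IRI, against 180.3, 200.3 and 199 CPM in WT kidneys after NX. H2-D1 differed by 0.39 ± 0.13 in TG (edgeR adjusted p = 0.032), where 1 NX library lay within the IRI range, and by 0.44 ± 0.13 in WT without overlap (edgeR adjusted p = 0.015). The TG call of H2-D1 was lost in 5 of the 9 fits that left out 1 TG library, and the WT call was lost without WT NX replicate 0. Reads of the H2 family can be shared among its members, so the split between H2-K1 and H2-D1 is uncertain.

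B2m and Tap1 did not pass in either genotype. B2m had 173, 201 and 238 CPM in TG kidneys after IRI, against 201, 172 and 258 CPM in TG kidneys after NX, and 199.9, 249 and 397 CPM in WT kidneys after IRI, against 189, 209 and 215 CPM in WT kidneys after NX. The B2m groups overlapped in TG (-0.06 ± 0.19, edgeR adjusted p = 0.847) and in WT (0.47 ± 0.19, edgeR adjusted p = 0.0665). Tap1 reached 7.0, 7.82 and 10.2 CPM in TG after IRI, against 4.66, 4.38 and 6.96 after NX, and 6.27, 12.1 and 41.5 CPM in WT after IRI, against 7.54, 7.88 and 8.17 after NX. Its WT log2 fold change was 1.0 ± 0.41, and 0.43 without WT IRI replicate 2, where the highest value was found. Tap1 overlaps Psmb9 on the opposite strand.

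TG and WT kidneys were next compared directly after IRI. No member passed an adjusted p under 0.05 in edgeR, where 0.0701% of the 17111 genes tested did. At an unadjusted p under 0.05, 18 of the 36 members were lower in TG and 0 higher, where 7.84% of all genes were lower and 6.26% higher. DESeq2 called 2 members lower, Rsad2 and Ifi44, and edgeR without a filter on low counts called Rsad2. The log2 difference was below 0 for 34 of 36 members, with medians of -0.38 for type I targets, -0.77 for type II targets and -0.50 for MHC class I genes, beside -0.01 over all genes. This comparison uses the same IRI libraries as the injury comparisons above and is not independent of them.

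The 2 members with the smallest p were Rsad2 and Ifi44. Rsad2 had 11.6, 13.3 and 16.3 CPM (lowest, median and highest) in TG and 16.1, 20.5 and 34.3 CPM in WT kidneys after IRI, a difference of -0.76 ± 0.16 (edgeR adjusted p = 0.105). Ifi44 had 2.31, 2.91 and 3.87 CPM in TG and 3.38, 5.29 and 8.68 CPM in WT kidneys after IRI, a difference of -0.93 ± 0.25 (edgeR adjusted p = 0.168). Each median was lower in TG, and the highest TG library reached into the WT range for both genes. H2-K1 differed by -0.50 ± 0.15 (edgeR adjusted p = 0.207) and B2m by -0.51 ± 0.16 (edgeR adjusted p = 0.231).

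The lower values in TG depended in part on WT IRI replicate 2. Without it, 10 members were lower and 1 higher at an unadjusted p under 0.05, and the median over the members was -0.24 in place of -0.44. For Irf1 the difference was -0.95 with that library and -0.39 without it, for Tap1 -0.96 and -0.39, and for Gbp2 -0.82 and -0.10. Rsad2 and Ifi44 gave -0.72 and -0.91 without it. The 3 neutrophil markers tested had a median log2 difference of -1.34 and 0 of them passed, though all 3 were lower in TG at an unadjusted p under 0.05. All 4 red cell markers (median -2.95), both podocyte markers (-0.41), 3 of 5 macrophage markers and 2 of 5 endothelial markers were also lower at that level. So were 1 of 2 thick ascending limb, 1 of 3 pan-leukocyte and 1 of 4 tested T and NK cell markers, and the 1 tested B cell marker. In the other direction 1 macrophage marker was higher, and none of these markers was called. The part of these cells in the members' values was not tested. Leaving out the library labelled WT IRI replicate 1 instead gave 23 members lower and 0 higher, with a median of -0.54, and leaving out both gave 16 lower and 1 higher, with a median of -0.36.

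The 25 members that peaked in WT IRI replicate 2, where 6.08% of 17111 genes peaked, were 16 of 26 type I targets, 5 of 6 type II targets and 4 of 4 MHC class I genes. Its median log2 distance from the median of the 12 IRI libraries was 0.82 for type I targets, 1.68 for type II targets and 0.83 for MHC class I genes. Among genes that are not members, 17 other type II targets lay 2.15 above and 8 genes of MHC class II presentation 1.09 above. It had 1 Ifng count and 0 Ifnb1 counts. Its macrophage markers summed to 98.5 CPM, the highest of the IRI libraries, while its pan-leukocyte sum of 36.6 CPM, neutrophil sum of 23.5 CPM and T and NK cell sum of 2.48 CPM lay within the range of the other WT IRI libraries. WT IRI replicate 5, with the highest pan-leukocyte, neutrophil and red cell sums (57.0, 76.8 and 1270 CPM), was highest for 5 members, while 19.5% of all genes were highest there. The part of these cells in the members' values was not tested.

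**Figure D4:**
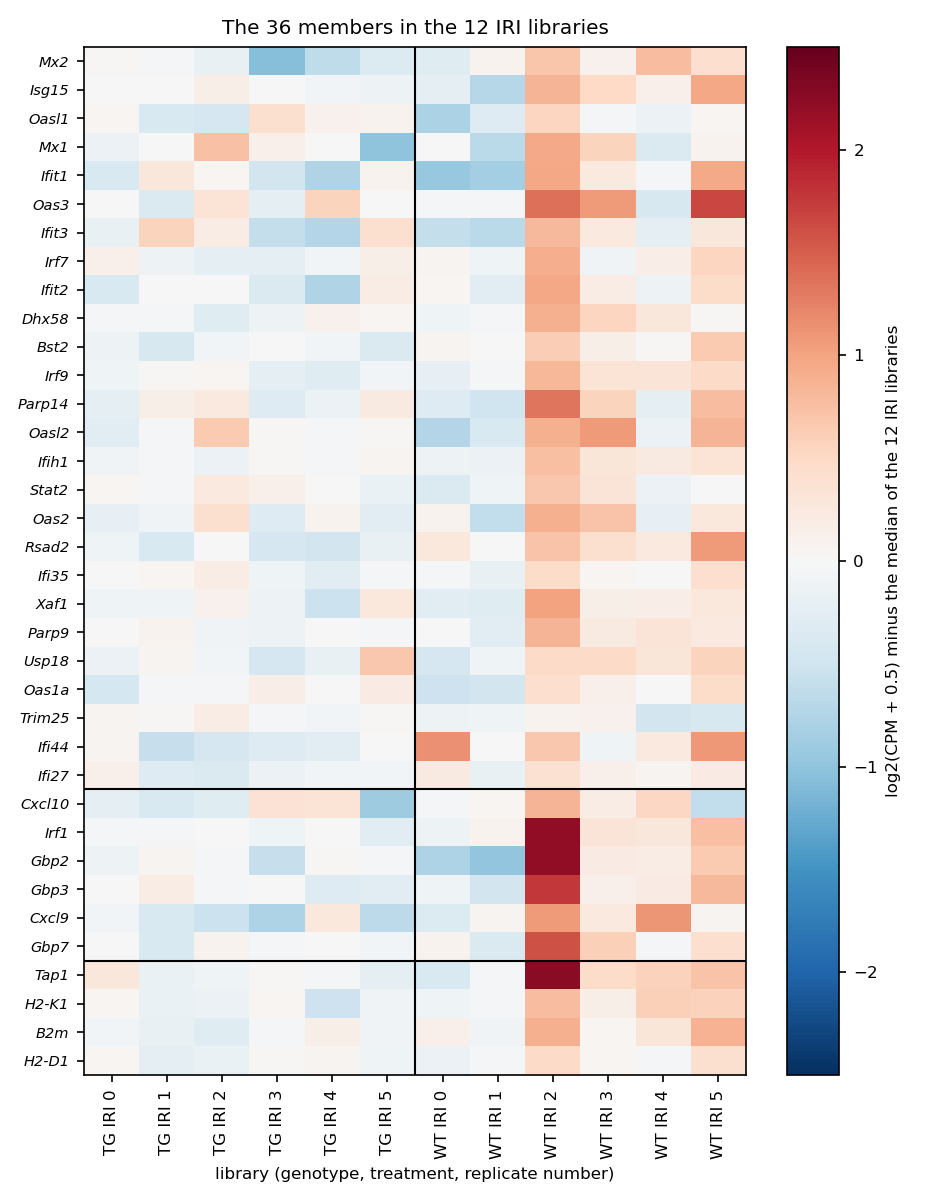
Each of the 36 members (rows) in each IRI library (columns, TG left of WT) as log2(CPM + 0.5) minus the median of the 12 IRI libraries, from blue (lower) to red (higher). WT IRI replicate 2 is the reddest column, with median distances of 0.82 over the type I rows, 1.68 over the type II rows and 0.83 over the MHC class I rows.

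After NX no member passed between TG and WT in edgeR or in DESeq2. In edgeR 0.0117% of 17100 genes did, and 2 of 36 were lower and 0 higher in TG at an unadjusted p under 0.05, against 3.56% and 3.2% of all genes. H2-K1 had 112, 112 and 103 CPM in TG and 133, 136 and 138 CPM in WT kidneys, a difference of -0.32 ± 0.08 (edgeR adjusted p = 0.73). Tap1 had 4.66, 4.38 and 6.96 CPM in TG and 7.54, 7.88 and 8.17 CPM in WT kidneys, a difference of -0.56 ± 0.20 (edgeR adjusted p = 0.73). For both genes the 3 TG libraries lay below the 3 WT libraries, as 5.95% of all genes did.

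Without surgery no member passed between TG and WT in females, where 0.0418% of 19126 genes did, or in males, where 0.00523% did. In females 1 member was higher and 2 were lower in TG at an unadjusted p under 0.05, where 4.79% of all genes were higher and 4.3% lower. In males 0 were higher and 2 lower, where 2.32% of all genes were higher and 2.9% lower, and DESeq2 called none in either sex. The smallest p values in females were those of Trim25 (0.33 ± 0.13, edgeR adjusted p = 0.46) and Cxcl9 (-1.72 ± 0.74, edgeR adjusted p = 0.51). In males they were those of Ifit3 (-0.26 ± 0.10, edgeR adjusted p = 0.916) and Ifi27 (-0.52 ± 0.24, edgeR adjusted p = 0.916). The libraries of both genotypes overlapped for all 4 genes.

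Female and male kidneys without surgery were also set side by side, and Gbp3 had the largest difference among the members in each genotype. In TG kidneys 3 members were higher and 1 was lower in females, where 9.87% of 19126 genes were higher and 11.3% lower. In WT kidneys 5 were higher and 1 was lower, against 10.1% and 11.3% of all genes. Gbp3, Ifit3 and Trim25 were called in both genotypes, which is 3 of the 4 TG calls and 3 of the 6 WT calls. Medians over the members were close to those of all genes, at 0.13 beside 0.02 in TG and 0.10 beside 0.03 in WT. By class they were 0.13, 0.31 and 0.10 in TG and 0.05, 0.73 and 0.50 in WT for type I targets, type II targets and MHC class I genes. T and NK cell markers summed to 2.5 to 3.71 CPM in TG females, against 1.51 to 2.23 in TG males, and to 2.64 to 2.97 CPM in WT females, against 0.657 to 1.88 in WT males. Macrophage markers summed to 105 to 115 CPM in TG females, against 78.4 to 102 in TG males, and to 106 to 123 CPM in WT females, against 96.9 to 110 in WT males. None of the 5 T and NK cell markers and none of the 5 macrophage markers was called in either genotype. Both distal convoluted tubule markers were higher in females of each genotype, with medians of 0.67 in TG and 1.05 in WT. Of the 2 thick ascending limb markers both were higher in TG females and 1 in WT females, and of the 2 collecting duct markers 1 was higher in TG females and both in WT females. Of the 2 podocyte markers 1 was higher in females of each genotype. In WT females 1 of 3 tested dendritic cell markers and 1 of 4 adipocyte markers were also higher. Of 5 proximal tubule markers, 2 were higher and 1 lower in TG females, and 1 was higher and 1 lower in WT females. The 4 red cell markers had a median of -2.11 in WT females, and 0 were called. The part of these cells in the sex differences was not tested.

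Gbp3 had 88.6, 51.9 and 54.1 CPM in TG females, against 9.96, 8.71 and 7.97 CPM in TG males, and 77.7, 59.6 and 67.0 CPM in WT females, against 11.5, 7.32 and 9.63 CPM in WT males. Every female library was several times above every male library. Gbp3 was 7.30-fold higher in TG females (2.87 ± 0.22, edgeR adjusted p = 2.58e-06) and 7.19-fold higher in WT females (2.85 ± 0.22, edgeR adjusted p = 2.58e-06). Its relative Gbp2 on the same chromosome did not pass, with 0.23 ± 0.39 in TG (edgeR adjusted p = 0.738) and 0.61 ± 0.40 in WT (edgeR adjusted p = 0.319). No other gene's span overlaps Gbp3, which lies on chromosome 3 at 142265787 to 142278970 in GRCm39.

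Ifit3 was also higher in females. It had 31.2, 34.0 and 30.2 CPM in TG females, against 19.9, 22.2 and 22.7 CPM in TG males, and 37.5, 33.9 and 33.9 CPM in WT females, against 26.2, 22.4 and 28.9 CPM in WT males. The sexes did not overlap in either genotype (0.56 ± 0.10, edgeR adjusted p = 0.00146 in TG and 0.44 ± 0.10, edgeR adjusted p = 0.00628 in WT). Trim25, the ubiquitin ligase that works with the RNA sensor RIG-I, was lower in females. It had 96.4, 91.0 and 73.9 CPM in TG females, against 128, 110.3 and 105 CPM in TG males, and 70.4, 78.7 and 58.3 CPM in WT females, against 130.0, 114 and 104 CPM in WT males. Female libraries lay below male libraries in both genotypes (-0.39 ± 0.13, edgeR adjusted p = 0.0463 in TG and -0.75 ± 0.13, edgeR adjusted p = 0.00124 in WT). The TG call of Trim25 was lost in 5 of the 6 fits that left out 1 TG library.

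The other sex calls were made in 1 genotype each. Gbp7 had 11.5, 14.6 and 12.6 CPM in TG females, against 11, 8.20 and 7.97 CPM in TG males (0.51 ± 0.17, edgeR adjusted p = 0.0498), and gave 0.12 ± 0.17 in WT (edgeR adjusted p = 0.691). Ifi35 had 11.7, 11.3 and 10.4 CPM in WT females, against 8.29, 7.27 and 8.59 CPM in WT males (0.47 ± 0.12, edgeR adjusted p = 0.0168), and gave 0.12 ± 0.12 in TG (edgeR adjusted p = 0.561). Ifi35 separated the sexes completely in WT, and the Gbp7 groups were apart in TG. The Gbp7 call was lost in 4 of the 6 fits that left out 1 TG library, with RLE normalization and with the replicate block, and the Ifi35 call without WT male replicate 1 or WT female replicate 0. The MHC class I genes H2-K1 and B2m were called in WT although the sexes overlapped. H2-K1 had 261, 253 and 186 CPM in WT females, against 187, 168 and 147 CPM in WT males (0.48 ± 0.15, edgeR adjusted p = 0.0339), and gave 0.31 ± 0.15 in TG (edgeR adjusted p = 0.166). B2m had 343, 345 and 245 CPM in WT females, against 275, 203 and 172 CPM in WT males (0.52 ± 0.17, edgeR adjusted p = 0.0438), and gave 0.11 ± 0.17 in TG (edgeR adjusted p = 0.71). The H2-K1 and B2m calls were each lost in 4 of the 6 fits that left out 1 WT library. No member passed the test of whether the sex difference depended on genotype, in edgeR, where 0.00523% of genes did, or in DESeq2. The smallest p values of that test were those of Cxcl9 (-2.52 ± 1.05, edgeR adjusted p = 0.532), the 1 member past an unadjusted p of 0.05 (lower, as were 4.1% of all genes, where 4.48% were higher), and Ifi35 (-0.35 ± 0.17, edgeR adjusted p = 0.61).

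**Figure D5:**
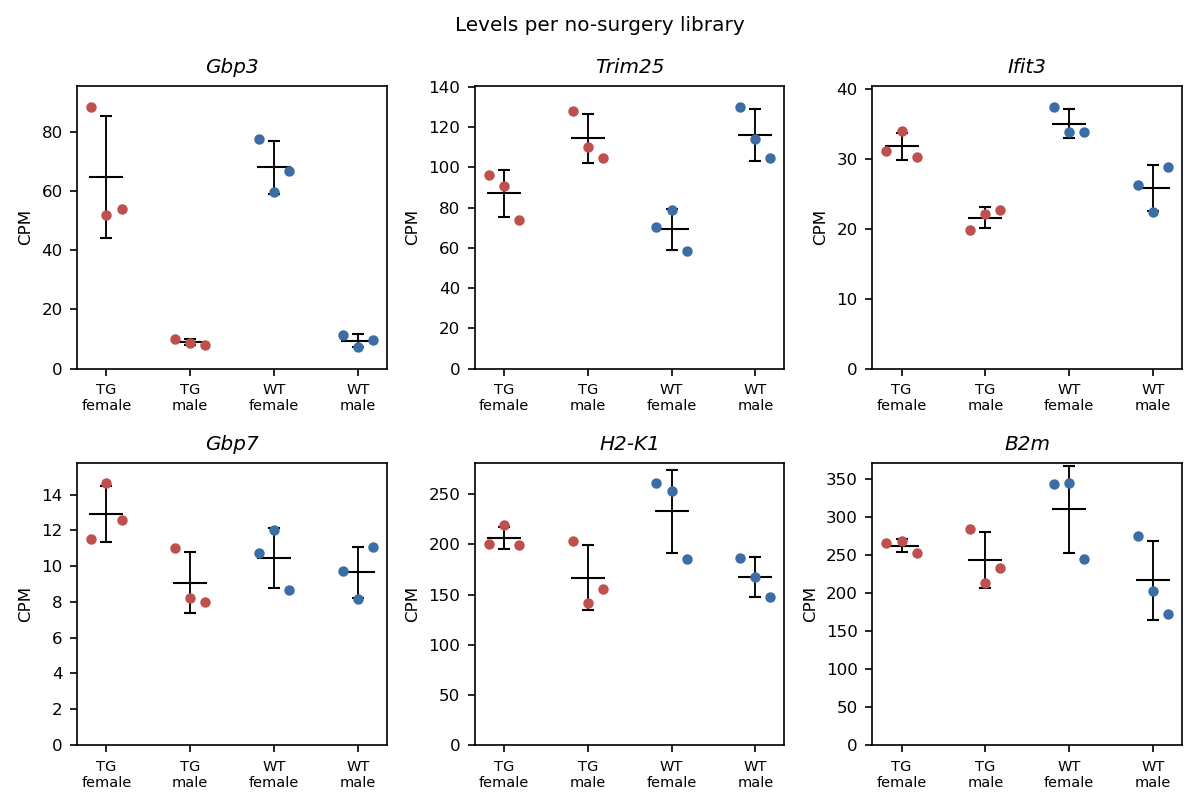
CPM in each no-surgery library for Gbp3, Trim25, Ifit3, Gbp7, H2-K1 and B2m, with females left of males in TG and then in WT, and a line and bar for the mean and SD. Gbp3 and Ifit3 are higher in every female library than in any male library of the same genotype, Trim25 is lower, and the H2-K1 and B2m points overlap between the sexes.

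The upstream genes of the pathway were read from lists that hold no member. The interferons themselves were almost not counted, so none entered the tests. Over all 30 libraries Ifnb1 had 3 counts, all in TG NX replicate 0, and Ifng had 31 counts in 10 libraries, at most 8 in a library. Ifng summed to 0 counts in the TG IRI libraries and 7 in the WT IRI libraries, against 9 in the TG NX libraries and 0 in the WT NX libraries. Ifnl3, a type III interferon, had 13 counts over the TG IRI and 40 over the WT IRI libraries, against 2 over the TG NX and 0 over the WT NX libraries. Of the 40 counts, 16 lay in WT IRI replicate 5. The group totals given here are not scaled, and each IRI group holds 6 libraries and each NX group 3. Ifnk, a type I interferon, had 18 counts over the TG IRI and 17 over the WT IRI libraries, against 3 over the TG NX and 1 over the WT NX libraries, and all 17 lay in WT IRI replicate 3. The genes Ifna1, Ifna2, Ifna4, Ifna5, Ifna13 and Ifnl2 had 0 counts in all libraries, which allows up to 3 counts in each total.

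Over all genes tested, 16.4% rose and 13% fell after IRI in TG, and 16.8% rose and 14.1% fell in WT. Of 6 interferon receptor genes, 3 rose after IRI in each genotype and 0 fell. Ifngr2, the signalling chain of the type II receptor, rose by 1.26 ± 0.15 in TG (edgeR adjusted p = 3.13e-06) and 0.94 ± 0.15 in WT (edgeR adjusted p = 8.11e-05), and its ligand-binding partner Ifngr1 by 0.52 ± 0.14 and 0.58 ± 0.14 (edgeR adjusted p = 0.00812 and 0.00365). The third was the type III chain Ifnlr1, at 0.96 in TG and 0.85 in WT. The type I receptor genes did not pass, with Ifnar1 at 0.24 in TG and 0.17 in WT and Ifnar2 at -0.24 and 0.15. Of 9 JAK-STAT and IRF genes, 3 rose and 1 fell in each genotype. The kinases Jak1 (0.83 in TG, 0.69 in WT) and Jak2 (0.79 and 0.65) rose and Tyk2 (-0.45 and -0.35) fell in both. Irf3 also rose in TG (0.24) and Irf8 in WT (0.81).

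Of 8 feedback inhibitors, 5 rose and 1 fell in TG, where 16.4% of all genes rose and 13% fell. In WT 5 rose and 0 fell, where 16.8% of all genes rose and 14.1% fell. Socs3, which blocks JAK kinases bound to cytokine receptors, averaged 31.3 ± 3.41 CPM in TG and 36.8 ± 10.03 CPM in WT kidneys after IRI (SD, n = 6 each), against 0.922 ± 0.149 CPM in TG and 1.05 ± 0.0928 CPM in WT kidneys after NX (n = 3 each). It rose by 5.09 ± 0.23 in TG (edgeR adjusted p = 8.99e-12) and 5.12 ± 0.23 in WT (edgeR adjusted p = 5.95e-12). The repressor Irf2bp2 (1.36 in TG, 1.35 in WT) and the phosphatase Ptpn2 (1.26 and 1.14) rose as well, and the phosphatase Ptpn6 fell in TG (-0.28).

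Of 13 nucleic acid sensors and adaptors, 3 rose and 3 fell in TG, where 16.4% of all genes rose and 13% fell. In WT 6 rose and 1 fell, where 16.8% of all genes rose and 14.1% fell. The DNA-sensing adaptor Sting1 (1.18 in TG, 1.27 in WT) and the RNA sensor Rigi (0.44 and 0.62) rose in both genotypes, and the mitochondrial adaptor Mavs fell in both (-0.76 and -0.62). The endosomal RNA receptor Tlr3 fell in TG (-1.04) and gave -0.22 in WT, while Tlr7 rose in WT (1.29) and gave 0.55 in TG.

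Further targets of each class moved in both directions after IRI, where 16.4% of all genes rose and 13% fell in TG. In WT 16.8% of all genes rose and 14.1% fell. Of 29 other type I targets, 6 rose and 5 fell in TG, and 6 rose and 2 fell in WT. The membrane-fusion inhibitor Ifitm3 (0.57 in TG, 0.82 in WT) and Slfn2 (0.93 and 1.38) rose in both, and the nucleotide kinase Cmpk2, the neighbour of Rsad2, fell in both (-0.95 and -0.40). Of 16 other type II targets tested, 1 rose and 1 fell in TG and 1 rose in WT. Socs1, another JAK inhibitor and 1 of the 8 feedback inhibitors above, rose in both genotypes (2.25 in TG, 2.33 in WT), and the GTPase Irgm2 fell in TG (-1.15). Of 20 other MHC class I genes, 1 rose and 1 fell in TG, and 3 rose and 0 fell in WT. The nonclassical heavy chain H2-Q4 rose in both (0.71 in TG, 1.07 in WT), and Nlrc5, the transactivator of MHC class I genes, rose in WT (1.35 ± 0.45, edgeR adjusted p = 0.029) and gave 0.82 ± 0.44 in TG (edgeR adjusted p = 0.178). Of 8 MHC class II genes, 0 moved in TG and 2 rose in WT, H2-Eb1 (0.70) and the protease Ctss (0.81), while their transactivator Ciita gave -1.05 in TG and -0.40 in WT without passing. No gene of these lists passed between TG and WT after IRI, where at an unadjusted p under 0.05 the count was 7 of 8 lower for MHC class II genes, 9 of 16 for other type II targets, 8 of 20 for other MHC class I genes and 12 of 29 for other type I targets, beside 7.84% of all genes. Without WT IRI replicate 2 these counts were 5, 3, 3 and 10, beside 8.38% of all genes.

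Between the sexes, the receptor chain Ifngr2 was lower in females (-0.54 in TG, -0.66 in WT), as were Jak1 (-0.28 and -0.19) and Tyk2 (-0.30 and -0.43), while Jak2 was higher (0.46 and 0.35). Over all genes tested, 9.87% were higher and 11.3% lower in TG females, and 10.1% were higher and 11.3% lower in WT females. Of the 20 other MHC class I genes, 3 were higher in TG females and 7 in WT females, and 0 were lower. They included the nonclassical heavy chain H2-Q7 (0.59 in TG, 0.86 in WT) and the proteasome activator Psme1 (0.23 and 0.34), and in WT Tap2, the partner of Tap1 (0.76). Of the 29 other type I targets, 7 were higher and 0 lower in TG females, among them Ifit3b (0.57), and 2 were higher and 1 lower in WT females.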

How the data were processed

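Poly(A) RNA of whole kidney was read in pairs (NovaSeq X Plus, per the labels' protocols). The submitters' processing notes name fastp 0.23.2, STAR 2.7.0, featureCounts 2.0.3 and the GRCm39 (mm39) genome. The authors deposited raw counts per gene in a table for the 12 no-surgery libraries and another for the 18 NX and IRI libraries, counted against Ensembl release 112 with an added EGFP entry, per the file headers. The strand setting is not given in the sources used here. Of 57133 rows, 51881 (90.8%) had a symbol in the gene name table; all 36 members matched 1 identifier each, and 0 count columns were left unmapped.

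From these counts, edgeR 4.0.16 in R 4.3.3 was run with TMM normalization, its default expression filter, which all 36 members passed in every fit, the quasi-likelihood F-test and Benjamini-Hochberg adjustment over all genes tested, with a threshold of 0.05. CPM are TMM-scaled within a table, and TPM use summed exon length. The 18 surgery libraries entered the fit of IRI against NX and its interaction with genotype, the IRI or NX libraries alone the direct TG and WT comparisons, and the 12 no-surgery libraries the genotype and sex comparisons. No test crossed the tables, which were normalized separately. The fits were tested on simulated data without an outlying or mislabelled library, so that test does not cover such libraries. No pair of the 435 library pairs was a copy, with a chi-square per degree of freedom of 15.4 or more.

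Most deposited counts are even (40.1% and 39.8% of counts of 10 or more are odd in the no-surgery and surgery tables), so halved counts were tried. The other alternatives were limma 3.58.1 (voom), DESeq2 1.42.0, RLE normalization, no filter, only the groups compared, a replicate block, each library left out and, for levels, TMM over all libraries. Members were chosen by name, and the members and gene lists were chosen with earlier results of these data known. Every member called in a comparison was described by its libraries, with the 2 smallest p where none was called, and Irf1, Cxcl10, Isg15, Ifit1, Irf7, H2-K1, H2-D1 and B2m in any case. From other lists called genes were named, at most 3 a direction by adjusted p, plus Ifnb1, Ifng, their receptors, Nlrc5 and Ciita. A gene of that rule is not reported here. Promoter windows came from RefSeq (GRCm38.p6) for 28 of the 36 members, against 27025 genes. Oas2, Usp18, Mx1, Mx2, Ifi27, Dhx58, Parp9 and Parp14 had no window in the table used.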

Additional observations from a re-analysis of the deposited data

Results flagged for a closer look

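Each member was looked at in the 6 TG IRI and in the 6 WT IRI libraries, 72 groups in all, for a highest or lowest library set far apart from the other 5 by Dixon's criterion. It was met in 8 groups. Chance alone flags about 1 in 20 groups (5 percent) of independent, normally distributed values. The members were measured in the same libraries, so the 8 groups cannot be weighed against that rate.

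WT IRI replicate 2 accounted for 5 of the 8. It held 64.9 CPM of the transcription factor Irf1, where the other 5 WT IRI libraries lay between 12.4 and 23.1 CPM. It held 42.4 CPM of the GTPase Gbp2, against 4.17 to 14 CPM in the others, and 13.9 CPM of Gbp7, against 3.21 to 6.69 CPM. The peptide transporter Tap1 reached 41.5 CPM there, against 6.27 to 14 CPM, and the apoptosis factor Xaf1 4.97 CPM, against 1.70 to 2.75 CPM. The first 3 of these are type II targets.

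The other 3 lay in TG IRI libraries and concerned a different library each. Oasl2 was at 6.34 CPM in TG IRI replicate 2, against 3.15 to 3.95 CPM in the others. Usp18 was at 2.63 CPM in TG IRI replicate 5, against 0.967 to 1.56 CPM. Gbp2 was low in TG IRI replicate 3, at 5.70 CPM against 7.96 to 9.15 CPM.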

How the results depend on the processing

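No value past its threshold, in the fit reported or in an alternative, changed sign. Of 112 single-gene results 24, all short of the threshold, changed sign under 1 or more alternatives, such as B2m after IRI in TG (-0.06, and 0.11 without TG NX replicate 2). In TG kidneys 3 members rose after IRI, 5 in DESeq2, 8 with only TG libraries in the fit, and 2 to 3 with a library left out; 3 fell, and 1 to 3 with a library left out (1 without TG NX replicate 2). In WT kidneys 16 rose, 13 with only WT libraries in the fit, 14 in limma-voom, and 12 to 21 with a library left out (12 without WT NX replicate 1), and 0 fell, 0 to 1 with a library left out (1, Trim25, without WT NX replicate 0 or WT IRI replicate 3). The interaction gave 0 lower members, and 1 in DESeq2. TG against WT after IRI gave 0 lower members, 1 without a count filter and 2 in DESeq2. In WT females 5 members were higher than in males, 9 with the replicate block and 2 to 9 with a library left out (2 without WT male replicate 1 or WT female replicate 0, 3 without WT male replicate 2 or WT female replicate 1, 9 without WT female replicate 2); 1 was lower, 1 to 2 with a library left out. In TG females 1 was lower, 2 in DESeq2, 2 with the block, and 0 to 1 with a library left out (0 without any TG male library, TG female replicate 1 or TG female replicate 2).

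The labels do not say whether replicate numbers pair the libraries. Same-numbered libraries of TG and WT deviated together by correlations of -0.0347 to 0.0605 after IRI and of 0.0138 to 0.127 after NX. Without surgery the correlations were 0.0389 to 0.309, not all over 0.1. Libraries with different numbers were not compared, so these values cannot decide whether the numbers pair libraries. With the replicate block, IRI against NX gave 15 members higher in WT and 3 higher and 3 lower in TG. TMM over all libraries together moved surgery levels by 7.21 to 9.64 percent and no-surgery levels by -13.3 to -9.63 percent. Mean CPM then moved by more than the SD for Irf1 (14.1 in TG IRI, 10.4 in WT males), Isg15 (3.06 in TG IRI, 2.86 in TG females), Ifit1 (4.91 in TG females), Irf7 (10.3 in TG males), H2-K1 (117.8 in TG NX, 147 in WT NX, 180.2 in TG females), H2-D1 (250.7 in TG IRI, 209.8 in WT NX, 193 in TG females, 211 in WT females) and B2m (222 in WT NX, 229 in TG females). Of the single-gene results, 1739 values kept their side of the threshold, 44 lost the call and 17 gained it.

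Groups of 3 limit the NX and no-surgery comparisons. Low members such as Oas3, Mx1 and Cxcl9 carry a larger counting error than B2m or H2-D1, and the interferon genes were too low to test.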
